A study of Mus musculus with 4 samples.

Results

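Malat1, Neat1, Meg3, Kcnq1ot1, Gas5, Snhg1, Snhg8 and Snhg12 are long noncoding RNA genes that were chosen by name as abundant nuclear RNAs and as hosts of small nucleolar RNAs (snoRNAs). Of these 8, Malat1, Neat1, Meg3, Kcnq1ot1 and Snhg12 were matched to a gene name among the 27933 genes counted, and Gas5, Snhg1 and Snhg8 were not analysed here. RNA-seq read counts were compared between stressed and control melanocyte stem cells of the mouse, which renew the pigment cells of hair and were purified by fluorescence-activated cell sorting. The stressed mice (n = 2 libraries) were injected with RTX (an abbreviation that the labels do not spell out), and the control mice (n = 2 libraries) received saline, with harvest 12 h after RTX injection. Strain, sex and age of the mice, and whether a library came from 1 animal or from pooled animals, were not stated in the labels. The p-values thus rest on library-to-library spread that may be technical. According to its title, the study concerned overactive sympathetic nerves and the loss of these stem cells.

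Malat1 and Neat1 are RNAs that stay in the nucleus. Malat1 collects in nuclear speckles, bodies rich in splicing factors, and Neat1 is the scaffold of paraspeckles, bodies that hold RNA-binding proteins and edited RNAs. Meg3 and Kcnq1ot1 are imprinted, that is, made from the copy inherited from 1 parent: Meg3 from the maternal copy, and Kcnq1ot1 from the paternal copy, where it runs antisense to Kcnq1 and silences neighbouring genes. Gas5 and the Snhg genes carry snoRNAs in their introns, which guide chemical modification of ribosomal and other RNAs. The spliced host transcripts are short-lived, and many start with a run of pyrimidines like the mRNAs of ribosomal proteins.

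The sequence at the 3′ ends of Malat1 and Neat1 is shown because these neighbouring genes share it and because their RNAs are the most abundant members. Both RNAs end in a triple helix in place of a poly(A) tail, built from U-rich motifs and an A-rich tract. In the GENCODE M21 transcripts (mm10, minus strand, written as DNA, 5′ to 3′), the stretch of Malat1 is at chr19:5795982-5796065 and that of Neat1 at chr19:5824708-5824797. Capitals mark TTTCTTTTCCTGA, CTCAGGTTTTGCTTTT and AAAAAGCAAAA, the 3 blocks of at least 10 bases that the last 400 bases of these transcripts share. The blocks were thus read from these RNAs, and they were searched in other transcripts on the transcribed strand only.
Malat1: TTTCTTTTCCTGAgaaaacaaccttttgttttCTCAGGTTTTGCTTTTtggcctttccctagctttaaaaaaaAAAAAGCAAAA
Neat1: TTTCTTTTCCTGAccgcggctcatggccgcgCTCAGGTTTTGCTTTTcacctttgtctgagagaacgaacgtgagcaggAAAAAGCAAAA
Of 141767 transcripts in that annotation, 2 held the 3 blocks in this order with at most 80 bases between neighbours (0.00141%), 1 of Malat1 and 1 of Neat1. The tract closes the annotated Neat1 transcript, while the Malat1 annotation runs on for 292 bases.

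The start sites of the 4 snoRNA hosts are shown for their pyrimidine runs. Windows of 20 bases before and 30 bases from the annotated start come from RefSeq (GRCm38.p6), which gave windows for 7 of the 8 members, and capitals mark the unbroken run of C and T that contains the first transcribed base.
Snhg12, chr4:132308658-132308707, plus strand: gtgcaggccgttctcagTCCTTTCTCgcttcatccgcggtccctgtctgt
Snhg8, chr3:123508307-123508356, minus strand: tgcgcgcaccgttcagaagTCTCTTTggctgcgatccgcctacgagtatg
Gas5, chr1:161035146-161035195, plus strand: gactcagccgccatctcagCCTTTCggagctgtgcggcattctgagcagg
Snhg1, chr19:8723467-8723516, plus strand: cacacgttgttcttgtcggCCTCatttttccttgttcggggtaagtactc
The run was 9 bases long in Snhg12, and 3.03% of all 32851 RefSeq windows had a run of at least that length. It was 7 bases in Snhg8 (5.28% of windows), 6 in Gas5 (7.25%) and 4 in Snhg1 (14.0%). Part of each run lay before the annotated first base: 3 bases in Snhg12 and 1 base each in Snhg8, Gas5 and Snhg1. Malat1 had a run of 2 bases, Kcnq1ot1 and Meg3 had none at their starts, and a further annotated start of Gas5 also had none. These matches describe the letters at the annotated starts.

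Malat1 and Neat1 lay lower in stressed than in control cells, Snhg12 lay higher, Kcnq1ot1 was mixed and Meg3 had no reads. With edgeR's quasi-likelihood test, Benjamini-Hochberg adjusted over all 13348 tested genes at a threshold of 0.05, 0 of the 4 tested members were called, as were 0.0% of all tested genes. At an unadjusted p below 0.05 the same test counted 1705 genes (12.8%; 7.6% lower), among them 1 member, Neat1, which was lower. DESeq2 called 587 genes (4.4%), and limma-voom called 0 (0.0%), with 1700 at an unadjusted p below 0.05 (12.7%). DESeq2 called Neat1 lower, 1 of 4 members, where 2.67% of all tested genes were called lower. Both stressed libraries lay below both controls for 2 of the 4 members (22.9% of all tested genes) and above both controls for 1 (21.8% of all tested genes), so that separation of the groups was common among all genes.

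**Figure D1:**
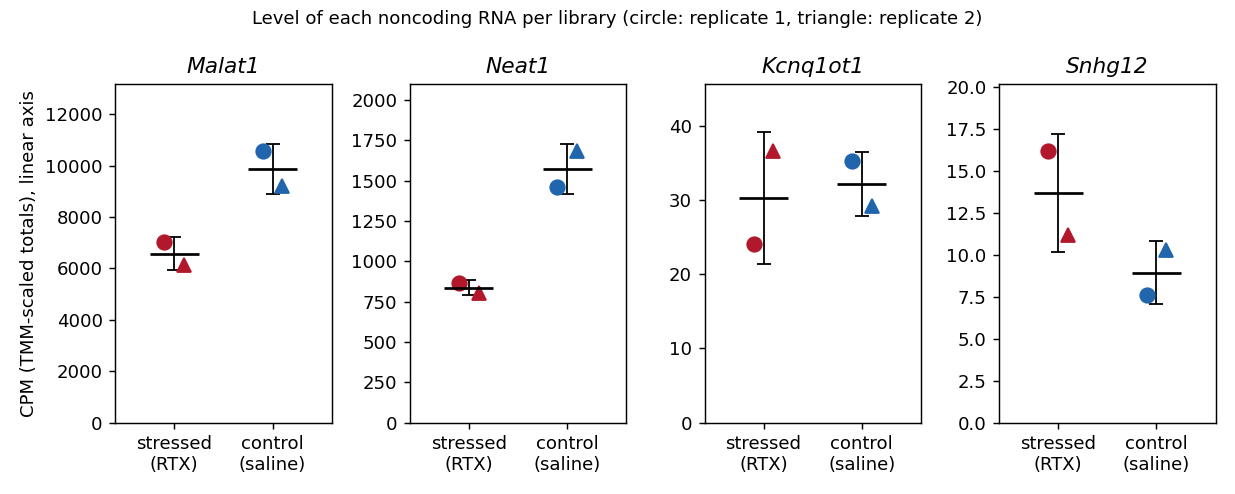
Level of 4 noncoding RNAs in each library, in CPM (counts scaled to a common library size) on a linear axis from 0, stressed beside control; black lines are means and bars are 1 SD (n = 2 each). For Malat1 and Neat1 each stressed point lies below each control point, for Snhg12 each lies above, and the groups overlap for Kcnq1ot1; Meg3, at 0 in every library, is not drawn.

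Malat1 (chromosome 19, 5795690-5802672, mm10, minus strand) was among the most abundant transcripts in every library. It had 7024 and 6137 CPM in stressed replicates 1 and 2, against 10555 and 9192 CPM in control replicates 1 and 2. Both stressed libraries lay below both controls. By CPM it ranked 4th and 5th among all genes in the stressed libraries, and 1st and 3rd in the controls. These levels averaged 6580.5 ± 627 CPM in stressed and 9873 ± 964 CPM in control cells (SD, n = 2 each), with log2 fold change -0.59 and SE 0.27 (edgeR adjusted p = 0.432, DESeq2 adjusted p = 0.0649), so Malat1 was not called by edgeR or DESeq2. About 1 gene in 6 (16.0% of tested genes) had a log2 fold change at least as far below 0.

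Depth did not limit Malat1. Its share of all counts was 0.704% (95% Wilson interval 0.699 to 0.709) and 0.608% (0.603 to 0.612) in stressed replicates 1 and 2, against 1.06% (1.06 to 1.07) and 0.915% (0.910 to 0.921) in control replicates 1 and 2. The counting intervals of all 4 libraries were separate, also within each group, and they cover counting error alone: no molecular identifiers were counted, so copies made by PCR are included. Replicates 1 and 2 differed by 0.19 log2 units in the stressed pair and by 0.20 in the control pair. The median gap over all tested genes was 0.24 in the stressed pair and 0.35 in the control pair. A gap smaller than that of Malat1 was found for 41.4% of tested genes in the stressed pair and 30.8% in the control pair. Genes with few reads have wider gaps from counting error, and the genes compared were not matched for depth.

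Neat1 (chromosome 19, 5824708-5845478, minus strand) showed the largest difference of the tested members. It had 868 and 803 CPM in stressed replicates 1 and 2, against 1460.3 and 1680.2 CPM in control replicates 1 and 2. The stressed libraries were close to each other and both lay below both controls. The means were 835 ± 46 CPM in stressed and 1570.3 ± 155 CPM in control cells (SD, n = 2 each), with log2 fold change -0.91 and SE 0.22 (edgeR adjusted p = 0.189). By DESeq2 it fell, with log2 fold change -0.90, SE 0.19 and adjusted p = 0.000286. Without stressed replicate 1 or stressed replicate 2 the DESeq2 adjusted p was 0.179 and 0.518, with log2 fold changes of -0.96 and -0.85, so this call needed both stressed libraries. A log2 fold change at least as far below 0 was found for 9.58% of tested genes.

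Neat1 is made as a short polyadenylated RNA and as a long RNA that holds the paraspeckle together and ends at the triple helix shown above. The counts cover 1 merged exon of 20771 bases in which the short form lies inside the long one, so the forms were not separated. The Smart-Seq V4 kit named in the labels primes on poly(A), and how far RNAs without a tail were captured was not tested. Malat1 has likewise 1 merged exon, of 6983 bases.

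Per length of merged exon, Malat1 stood far above Neat1 in every library. In RPKM, which scales CPM to a kilobase of exon, Malat1 had 1006 and 879 in stressed replicates 1 and 2, against 1512 and 1316 in control replicates 1 and 2. Neat1 had 41.8 and 38.6 RPKM in the stressed libraries, against 70.3 and 80.9 RPKM in the controls. The ratio of Malat1 to Neat1 per length was 24.1 and 22.7 in stressed replicates 1 and 2, against 21.5 and 16.3 in control replicates 1 and 2. It divides Neat1 by the 20771 bases of the long form, and would be smaller if most reads came from the short form, which was not tested. By CPM alone the ratio was 8.09 and 7.65 in stressed replicates 1 and 2, against 7.23 and 5.47 in control replicates 1 and 2. Each stressed library had a higher ratio than each control, with control replicate 2 the lowest, and this difference was not tested.

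Malat1 and Neat1 are separated by 22035 bases, with no tested gene between them. Frmd8, whose protein stabilises the iRhom and ADAM17 shedding complex, lies 4223 bases from Neat1 and had 175 and 196 CPM in stressed libraries against 129 and 213 CPM in controls. Its groups overlapped, and its log2 fold change was 0.12 (SE 0.27), which edgeR and DESeq2 did not call. In GENCODE M21 the unnamed gene Gm37376 overlaps Malat1 on the opposite strand, and unstranded counting cannot tell their reads apart.

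Kcnq1ot1 (chromosome 7, 143212155-143296549, minus strand) differed in no single direction between the groups. It had 24.0 and 36.6 CPM in stressed replicates 1 and 2, against 35.2 and 29.1 CPM in control replicates 1 and 2. The groups overlapped, with the lowest and the highest value both in stressed libraries. These levels rest on 256 and 402 reads in stressed libraries (exact 95% Poisson intervals 226 to 289 and 364 to 443) and on 329 and 344 reads in controls (294 to 367 and 309 to 382). The log2 fold change was -0.09, SE 0.29 (edgeR adjusted p = 0.942), and it turned to 0.07 when control replicate 1 was left out and to 0.19 when stressed replicate 1 was. Over its unspliced length of 84395 bases its level was 0.285 and 0.433 RPKM in stressed libraries, against 0.418 and 0.345 RPKM in controls.

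Exonic reads counted for Kcnq1 were few. This potassium channel gene, inside which Kcnq1ot1 lies, had 4 and 0 reads in stressed libraries and 0 and 0 in controls. Counting was unstranded, and exonic counts of Kcnq1 do not show the strand of the reads within Kcnq1ot1. Reads from introns of Kcnq1 would still count as Kcnq1ot1, and these were not separated.

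Of 11 imprinted-domain neighbours of Kcnq1ot1, 8 were tested, 2 with log2 fold changes above 0 and 6 below, and a median of -0.37 beside -0.01 over all tested genes. The median was -0.09 over the 6 genes with 5 CPM in 2 libraries, -0.14 without control replicate 2 and -0.24 without stressed replicate 1. Both stressed libraries lay below both controls for 5 of the 8 (22.9% of all tested genes) and above both for 1 (21.8%). EdgeR called 0 of the 8, and DESeq2 called 1 lower (2.67% of all tested genes). At an unadjusted edgeR p below 0.05, 2 were lower (7.6% of all tested genes), Osbpl5 and Ascl2. Ascl2 had the lowest log2 fold change (-2.11), from 9 and 10 reads in stressed libraries against 35 and 46 reads in controls. Osbpl5, an oxysterol-binding protein gene, was at 100.3 and 112 CPM in stressed libraries against 199 and 171 CPM in controls. It fell by DESeq2 (DESeq2 log2 fold change -0.80, SE 0.22, adjusted p = 0.0139), a call that was lost without control replicate 1 (0.157), stressed replicate 1 (0.728) or stressed replicate 2 (0.683). Cdkn1c, the cell cycle inhibitor gene p57 that Kcnq1ot1 silences in cis, was at 6.76 and 9.638 CPM in stressed libraries against 9.641 and 15.2 CPM in controls. It thus counted among the 5 without overlap by a minimal gap, and was not called by edgeR or DESeq2. Cd81, a tetraspanin gene, was at 394 and 510 CPM in stressed libraries against 351 and 330 CPM in controls, likewise not called. Tssc4, the nearest tested gene on the other side of Kcnq1ot1 from Cdkn1c, was at 45.4 and 47.2 CPM in stressed libraries against 48.1 and 54.3 CPM in controls. Nap1l4, a histone chaperone gene, differed by -0.02 on the log2 scale with an SE of 0.17.

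Meg3 (chromosome 12, 109541001-109571726, plus strand) had 0 reads in all 4 libraries. A count of 0 allows up to 3 reads per library (one-sided 95% limit, counting error only). Against unscaled library totals this is 0.282 and 0.270 CPM in stressed replicates 1 and 2, and 0.324 and 0.253 CPM in control replicates 1 and 2. Other genes of its imprinted domain had few reads or none. Dlk1, a paternally expressed gene of a membrane-bound Notch ligand, had 0.282 and 0.909 CPM in stressed libraries and 0 in both controls. Mirg, a noncoding microRNA host of the domain, had 0 and 0.0909 CPM in stressed libraries against 0.214 and 0.169 CPM in controls, and Rtl1 had no reads. Gm26906, on the opposite strand inside Meg3, had 0 reads in all 4 libraries. The nearest tested genes lay far off: Begain, a synaptic protein gene, was at 3.29 and 1.45 CPM in stressed libraries against 2.14 and 1.86 CPM in controls. Ppp2r5c, a phosphatase subunit gene, was at 113 and 116 CPM in stressed libraries against 148 and 123 CPM in controls (log2 fold change -0.25, SE 0.18, not called by edgeR or DESeq2).

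Snhg12 (chromosome 4, 132308678-132311024, plus strand) is the 1 snoRNA host among the members that was measured. GENCODE M21 places Snora16a, Snora44, Snora61 and Snord99 within it, and their own levels were not analysed here. It had 16.1 and 11.2 CPM in stressed replicates 1 and 2, against 7.61 and 10.3 CPM in control replicates 1 and 2. Both stressed libraries were above both controls, but stressed replicate 2 and control replicate 2 were close. In reads these were 123 (exact 95% Poisson interval 102 to 147) in stressed replicate 2 and 121 (100.4 to 145) in control replicate 2, so that this pair did not differ beyond counting error. The means were 13.7 ± 3.5 CPM in stressed and 8.93 ± 1.87 CPM in control cells (SD, n = 2 each), with log2 fold change 0.61 and SE 0.37 (edgeR adjusted p = 0.556, DESeq2 adjusted p = 0.697). Per length it had 9.93 and 6.88 RPKM in stressed libraries, against 4.68 and 6.30 RPKM in controls, in every library below Neat1 and above Kcnq1ot1.

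Trnau1ap, a gene of selenoprotein synthesis, ends 738 bases from Snhg12 on the opposite strand. It was at 53.8 and 55.3 CPM in stressed libraries against 42.4 and 54.6 CPM in controls. Its groups overlapped, and its log2 fold change was 0.17 with an SE of 0.21. Rab42, a small GTPase gene on the other side, was at 2.16 and 0.909 CPM in stressed libraries against 1.18 and 1.19 CPM in controls.

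Other snoRNA hosts lay on both sides of 0. Of 18 further host genes, 6 were measured and tested, 3 with log2 fold changes above 0 and 3 below, with a median of 0.02 beside -0.01 over all tested genes. EdgeR called 0 of these 6, with 0 at an unadjusted p below 0.05, and DESeq2 also called 0. Snhg6 was at 16.1 and 16.6 CPM in stressed libraries against 11.2 and 6.95 CPM in controls, a log2 fold change of 0.85 (SE 0.36). Snhg20 was at 63.9 and 65.6 CPM in stressed libraries against 55.2 and 59.7 CPM in controls, a log2 fold change of 0.17. Snhg18 was at 26.9 and 21.9 CPM in stressed libraries against 21.4 and 36.3 CPM in controls, with overlapping groups. RefSeq gave Snhg18 a start with a run of 10 pyrimidines, 4 of them before the annotated first base (2.37% of windows had a run at least as long). Snhg20, Snhg9 and Snhg11 had no such run at their starts.

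**Figure D2:**
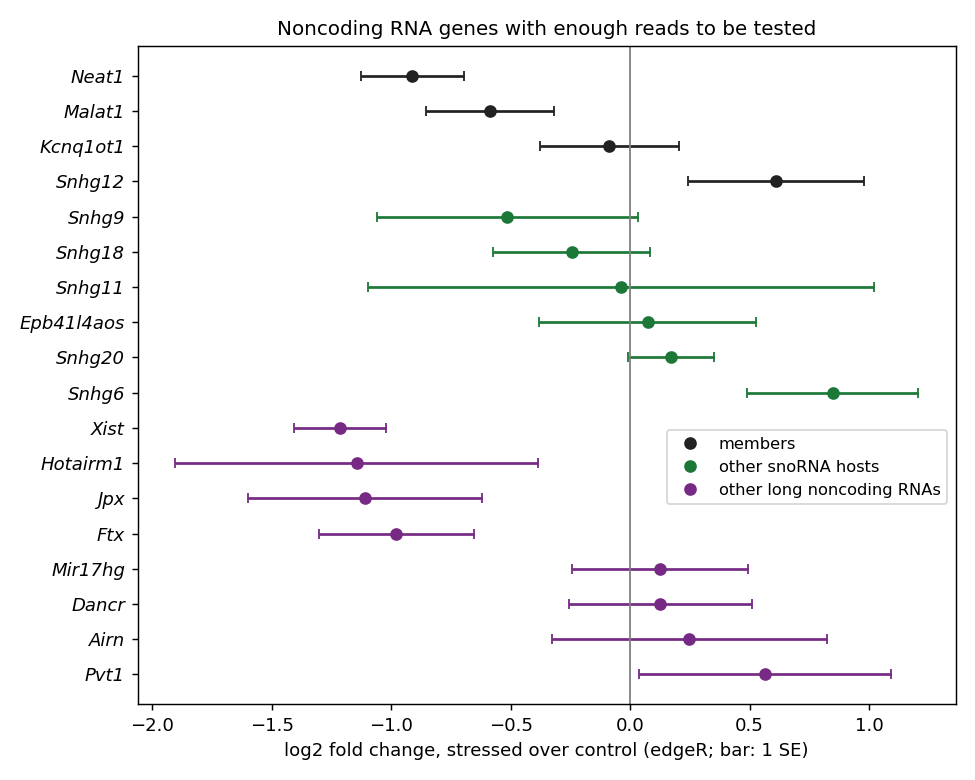
Fitted log2 fold change, stressed over control, of each noncoding RNA gene that was tested, with bars of 1 SE (edgeR, 2 libraries a group). Neat1 (-0.91) and Malat1 (-0.59) lie below 0, the snoRNA hosts scatter around 0 with Snhg6 (0.85) highest, and Xist, Ftx, Jpx and Hotairm1 lie lowest among the other long noncoding RNAs.

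No gene of a paraspeckle protein was called. Of 24 paraspeckle protein genes 15 had log2 fold changes above 0 and 9 below, with a median of 0.05, and edgeR and DESeq2 called 0 of them (edgeR unadjusted p below 0.05 for 0). Nono, a core paraspeckle protein gene, was at 238 and 255 CPM in stressed libraries against 211 and 189 CPM in controls, a log2 fold change of 0.30 (SE 0.18). Hnrnpa1, a splicing regulator gene, had 0.34 (SE 0.21). Below 0, the cold-inducible Rbm3 had -0.29 (SE 0.21).

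No gene of a nuclear speckle protein was called either. Of 20 genes 13 had log2 fold changes above 0 and 7 below, with a median of 0.08, and edgeR and DESeq2 called 0, with 0 at an unadjusted edgeR p below 0.05. Rnps1, a splicing activator gene, was highest at 0.41 (SE 0.19), followed by the SR protein kinase gene Clk4 at 0.33 (SE 0.19). The splicing factor gene Srsf5 was lowest at -0.35 (SE 0.21), at 924 and 798 CPM in stressed libraries against 1119 and 1080.5 CPM in controls, followed by Son, a speckle scaffold gene, at -0.32 (SE 0.24).

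Most genes of snoRNP proteins and of their assembly had log2 fold changes above 0. Of 18 tested genes 15 had log2 fold changes above 0 and 3 below, with a median of 0.43 beside -0.01 over all tested genes. Both stressed libraries were above both controls for 11 of the 18, beside 21.8% of all tested genes. EdgeR called 0 after adjustment and counted 7 higher with 0 lower by its unadjusted p, beside 5.17% of all tested genes higher, and DESeq2 called 1 higher (Ncl, adjusted p = 0.0274), beside 1.73% of all tested genes. The Ncl call was lost in DESeq2 without control replicate 1 (adjusted p = 0.0859), control replicate 2 (0.05), stressed replicate 1 (0.863) or stressed replicate 2 (0.999658). Nop56, a core box C/D snoRNP protein gene, was at 246 and 312 CPM in stressed libraries against 180.2 and 173 CPM in controls, a log2 fold change of 0.66 (SE 0.20, edgeR adjusted p = 0.262). Ruvbl1, an ATPase gene of snoRNP assembly, had 0.67 (SE 0.27), with 43.7 and 62.6 CPM in stressed libraries against 29.2 and 37.4 CPM in controls. Lowest were Znhit3, a box C/D assembly factor gene, at -0.27 (SE 0.32), and Nop10, a box H/ACA protein gene, at -0.14 (SE 0.22), both with overlapping groups.

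Factors of nonsense-mediated decay, which degrades many spliced snoRNA host transcripts, had log2 fold changes above 0 for 5 of 15 genes and below 0 for 10, with a median of -0.08. EdgeR and DESeq2 called 0, and 0 had an unadjusted edgeR p below 0.05. Smg5, a gene of a protein that binds phosphorylated UPF1, was highest at 0.36 (SE 0.17). Smg8 was lowest at -0.59 (SE 0.36), with 18.1 and 37.6 CPM in stressed libraries against 42.0 and 41.8 CPM in controls, and Upf3b had -0.41 (SE 0.22).

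**Figure D3:**
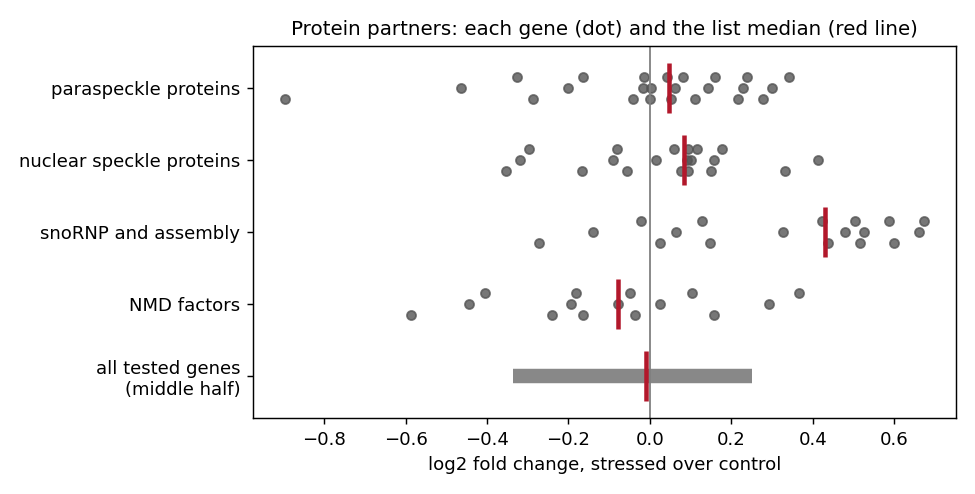
Log2 fold change, stressed over control, of each tested gene (dots) in 4 lists of protein partners, with list medians as red lines and the interquartile range of all tested genes as a grey bar from -0.34 to 0.25. The medians of paraspeckle proteins (0.05), nuclear speckle proteins (0.08) and decay factors (-0.08) lie within the bar, and that of snoRNP proteins (0.43) lies to its right.

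The genes whose levels over the 4 libraries were most like those of Malat1 and Neat1 were picked among 5173 genes of at least 50 CPM by the root mean square distance of centred log2 CPM. Nearest to Malat1 were Acsl4, Map1lc3a and Tspan9, at distances of 0.022, 0.023 and 0.041 log2 units, and 53 genes lay within 0.1. Acsl4, a gene of fatty acid activation, was at 60.9 and 52.5 CPM in stressed libraries against 92.2 and 77.1 CPM in controls. Nearest to Neat1 were Tns4, Cubn and Il11ra1, at 0.034, 0.051 and 0.061, and 10 genes lay within 0.1. Tns4, a tensin gene, was at 102 and 92.6 CPM in stressed libraries against 180 and 197 CPM in controls.

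Total counts were 10625688 and 11104039 in stressed replicates 1 and 2, against 9273652 and 11854280 in control replicates 1 and 2, so that depth overlapped between the groups. The summed levels of melanocyte markers, keratinocyte markers, immune cell markers and immediate early genes, and the mitochondrial share, did not overlap. The 10 melanocyte markers checked the sorted cell type, with Dct, Pmel and Tyrp1 among them, and summed to 46717 and 44071 CPM in stressed libraries against 25393 and 24395 CPM in controls. Both stressed libraries lay above both controls for 7 of these 10, beside 21.8% of all tested genes. The log2 fold change was largest for Gpnmb (1.47) and Tyrp1 (1.36), while Sox10 (0.08) and Ednrb (-0.004) had overlapping groups. Keratinocyte markers were also present: 17 of 17 had reads, and they summed to 12407 and 10670 CPM in stressed libraries against 30292 and 18513 CPM in controls, with Krt6a the 1 marker whose log2 fold change was above 0. Mitochondrially encoded RNA held 0.479% and 0.405% of counts in stressed libraries against 0.906% and 2.07% in controls, and 7 immediate early genes summed to 11820 and 8331 CPM in stressed libraries against 14968 and 27126 CPM in controls. The part of these differences in the levels of Malat1 and Neat1 was not tested, and in such bulk samples fewer cells of a type and less RNA per cell cannot be told apart. With the keratinocyte markers and mitochondrial genes removed before scaling, the log2 fold changes were -0.58 for Malat1 and -0.91 for Neat1. This removal changes the scaling alone: any reads of Malat1 and Neat1 from keratinocytes stayed in their counts, and their share was not tested.

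Markers of immune cells, fibroblasts and endothelium were low. The 8 immune markers summed to 96 and 133 reads in stressed libraries against 181 and 1047 reads in controls, with control replicate 2 highest. In CPM these sums were 9.03 and 12.0 in stressed libraries against 19.5 and 88.3 in controls. Both stressed libraries lay below both controls for all 4 tested immune markers (22.9% of all tested genes). DESeq2 called 1 of them lower (2.67% of all tested genes), and edgeR called 0. Fibroblast markers summed to 266 and 141 reads in stressed libraries against 57 and 205 reads in controls, and endothelial markers to 17 and 33 reads in stressed libraries against 55 and 14 reads in controls. Schwann cell markers summed to 10361 and 8371 reads in stressed libraries against 7618 and 12519 reads in controls.

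Across 19 processing alternatives Malat1 kept a log2 fold change between -0.68 and -0.47, Neat1 between -1.003 and -0.80, and Snhg12 between 0.33 and 0.86. Malat1 was called in 1 of the 19, DESeq2 without control replicate 2 (adjusted p = 0.0149, where 3.42% of tested genes were called lower), and its adjusted p ranged up to 0.999658. Neat1 was called in 5 of the 19, with adjusted p between 7.19e-05 and 0.970. These were edgeR with no low-count filter (2.67% of tested genes called lower), edgeR without control replicate 1 (2.33%), and DESeq2 with all libraries (2.67%), without control replicate 1 (1.46%) and without control replicate 2 (3.42%).

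**Figure D4:**
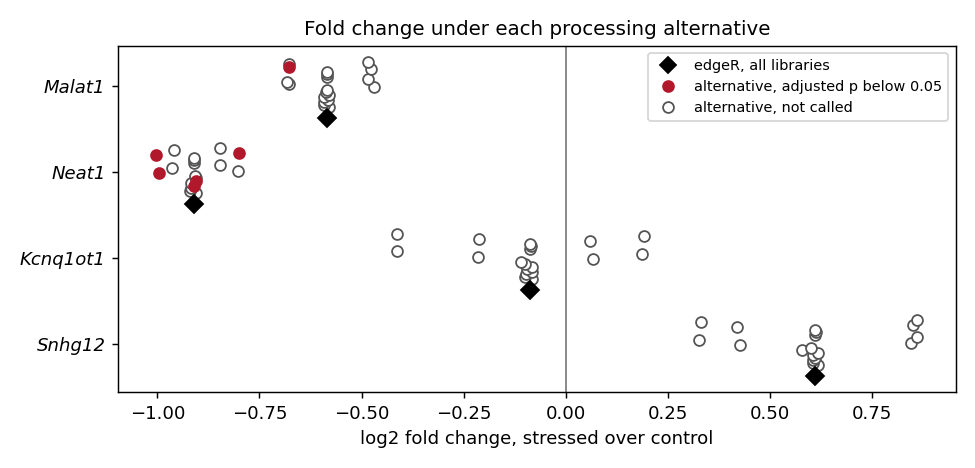
Log2 fold change, stressed over control, of the 4 tested noncoding RNAs in edgeR with all libraries (black diamonds) and under 19 alternatives (circles, red where the adjusted p was below 0.05). Malat1 and Neat1 stay below 0 and Snhg12 above 0 in all of them, while Kcnq1ot1 lies on either side of 0.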

How the data were processed

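The deposited values were raw counts for each gene. Per the file headers, featureCounts 1.6.1 produced them, summing reads over exons by gene name on mm10 with a minimum mapping quality of 30 and no strand or paired-end option. The submitters' processing notes also name Trim Galore 0.4.1, STAR 2.5.3 and DESeq2 1.22.2. Per the file headers, the alignments of stressed replicates 1 and 2 carry other numbers than the labels, so replicate numbers may differ from those of the authors.

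Counts were analysed in R 4.3.3 with edgeR 4.0.16 (filterByExpr at a minimum count of 10, TMM, quasi-likelihood F-test, two-sided, group as the only term), which left 13348 genes. CPM uses the TMM-scaled totals, and sums over marker lists use all counts. Fold changes are stressed over control, with edgeR's SE taken as |log2 fold change| over the root of F. DESeq2 1.42.0 and limma-voom (limma 3.58.1) were alternatives, and the code was tested on simulated counts. The libraries of each pair differed beyond sampling noise (chi-square per degree of freedom 18.0 in the stressed pair and 54.0 in the control pair).

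The members and lists were chosen with earlier results of these data known. Named genes were all members, the 2 largest and 2 smallest log2 fold changes of each list among genes of at least 10 CPM, all genes overlapping or neighbouring a member, and the 3 genes most like a member; others (such as Ncl, Dlk1, Mirg, Jpx, Hotairm1) were named after their values were seen. Some genes that this rule names are not reported here.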

Additional observations from a re-analysis of the deposited data

How the results depend on the processing

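The edgeR count of 0 genes and 0 members was unchanged with DESeq2 size factors, upper-quartile scaling, library totals alone, a stricter filter (5 CPM in 2 libraries), limma-voom, the robust fit, and removal of the 20 most abundant other genes or of keratinocyte and mitochondrial genes. It became 760 genes and 1 member (Neat1) with no low-count filter, and 587 genes and 1 member (Neat1) with DESeq2. With 1 library left out, edgeR called between 0 and 739 genes and between 0 and 1 members, and DESeq2, added after seeing the data as was the robust fit, called between 44 and 800 genes (477 without control replicate 1, 142 without stressed replicate 1) and between 0 and 2 members. EdgeR called Neat1 without control replicate 1 (adjusted p = 0.0114, log2 fold change -0.996). The difference of Kcnq1ot1 (-0.41 without stressed replicate 2) turned positive without control replicate 1 (0.068 by edgeR, 0.060 by DESeq2) and without stressed replicate 1 (0.188 by edgeR, 0.192 by DESeq2). The cause was not tested. Such fits take the spread of the remaining single library from the other group. The labels give both groups the same replicate numbers. Deviations of the libraries numbered 1 from their group means correlated at 0.172 across genes. With 2 libraries per group the libraries numbered 2 mirror these deviations, so they add no further information. With the replicate number as a block edgeR called 0 genes and 0 members. The scalings moved the median of all genes by less than 0.1 log2 units. Depth limits Meg3 and, for its closest pair of libraries, Snhg12.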

Other observations

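Among other long noncoding RNAs, Xist was called lower in stressed cells by DESeq2. Xist, the RNA that coats the inactive X chromosome of female cells, had 90.8 and 73.7 CPM in stressed replicates 1 and 2, against 186 and 196 CPM in control replicates 1 and 2. Its log2 fold change was -1.21, SE 0.19 (edgeR adjusted p = 0.121), and it fell by DESeq2 (adjusted p = 2.62e-05), a call that was lost without stressed replicate 2 (adjusted p = 0.321). Ftx, a noncoding gene of the same locus, had 8.35 and 9.64 CPM in stressed libraries against 15.1 and 20.3 CPM in controls (log2 fold change -0.98, SE 0.32, not called by edgeR or DESeq2). Jpx, an activator of Xist, had 3.57 and 2.73 CPM in stressed libraries against 6.32 and 7.29 CPM in controls (log2 fold change -1.11, SE 0.49, likewise not called). Ftx and Jpx are described for their position, with Jpx named after its values were seen. For all 3 RNAs both stressed libraries lay below both controls, as for 22.9% of tested genes. The Y-linked genes Ddx3y, Eif2s3y, Kdm5d and Uty, looked up after these values were seen, summed to 1 and 0 reads in stressed libraries and to 0 and 0 reads in controls. Tsix, a noncoding gene on the opposite strand that spans Xist, had 5 and 1 reads in stressed libraries against 8 and 13 reads in controls. Counting was unstranded, so reads from introns of Tsix would count as Xist, and these were not separated.

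Of 24 other long noncoding RNA genes 15 were measured and 8 tested, 4 with log2 fold changes above 0 and 4 below, with a median of -0.43 that was -0.98 with the filter of 5 CPM in 2 libraries. EdgeR called 0 of them, with 2 lower at an unadjusted p below 0.05 (7.6% of all tested genes), and DESeq2 called Xist alone, lower (2.67% of all tested genes). Dancr had 8.64 and 13.7 CPM in stressed libraries against 11.4 and 9.15 CPM in controls, with overlapping groups.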
